A study of Mus musculus with 7 samples.

Results

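Pools of mouse islet RNA, 7 in all, were divided by how much of their RNA came from the mitochondrial genome, and the nuclear genes were then compared between the sides. For each pool the counts of all rows on the mitochondrial chromosome were divided by the counts of all mouse genes, with the row of the Cre recombinase sequence left out. A share of at least 25% put 3 of the 7 pools on the high side, and 4 pools below 25% formed the low side. All pools came from pancreatic islets of mice aged 7 days, and each was RNA combined from 5 animals, so a pool and not a mouse is the unit of every comparison. Control mice were Nrf2lox/lox, in which loxP sites flank Nrf2 and the gene is intact. The βNrf2KO mice had Nrf2 deleted in β-cells, and the driver of Cre is not given in the sources used here. Genotype was mixed on both sides. The high side held control pools 1 and 2 and βNrf2KO pool 1. The low side held control pool 4 and βNrf2KO pools 2, 3 and 4. Values below are listed in that order.

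The mitochondrial genome encodes 13 proteins of the respiratory chain and ATP synthase, the transfer RNAs that translate them and the ribosomal RNAs. It is transcribed as long precursors from both strands, which are cut at the tRNAs, while every factor that copies, transcribes and processes it comes from nuclear genes. β-cells depend on mitochondrial ATP to couple glucose to insulin release. A share of counts is a ratio, so more mitochondrial RNA and less nuclear RNA in a pool cannot be told apart.

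Total counts per pool ran from 18187382 to 25373105, and the mean of the high pools was 1.01 times that of the low pools (exact permutation p = 1). Nuclear counts followed the rule in the opposite direction. They were 12314916, 11688553 and 13142310 in the high pools and 21664045, 14868138, 15435560 and 18757838 in the low pools, so every high pool was shallower for nuclear genes than every low pool. Library sizes for all nuclear comparisons were computed without mitochondrial rows. Several features of single pools cut across the sides. Xist, the noncoding RNA of the inactive X chromosome, had log2 CPM (counts per 1e6 nuclear counts, on a log2 scale) of 12, 6.68 and 5.32 in the high pools and 11.59, 11.25, 7.33 and 10.73 in the low pools, so its level was uneven within both sides. Pool number 1 was high and number 4 low in both genotypes, and these numbers cannot be told apart from the sides.

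The mitochondrial share was 43.0%, 51.8% and 27.7% in the high pools and 14.6%, 22.4%, 20.6% and 10.0% in the low pools. These values chose the sides and are given without a test. βNrf2KO pool 1 lay just inside the threshold and βNrf2KO pool 2 just outside it, 5.34 percentage points apart. The highest share was 5.17 times the lowest, and mitochondrial counts per nuclear count spanned 9.66-fold. Both genotypes were spread widely, since the control pools included the highest share and the next to lowest.

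**Figure D1:**
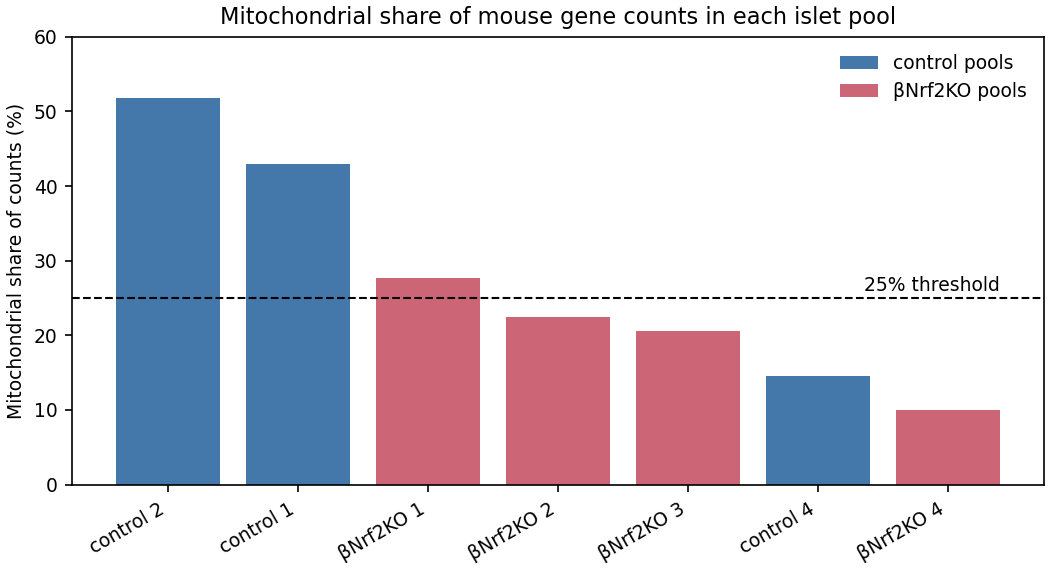
Mitochondrial share of mouse gene counts (%, y axis) in each of the 7 islet pools (x axis), ordered from high to low and coloured by genotype, with the 25% threshold as a dashed line. Bars are single pools, and the shares run from 51.8% in control pool 2 to 10.0% in βNrf2KO pool 4.

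Within the mitochondrial counts the makeup was alike in all pools. The 13 mRNA rows held 99.4% to 99.6% of the counts and the 22 tRNA rows the rest. The ribosomal RNAs of the mitochondrion have no row among the 35 mitochondrial rows, so they do not enter the share. mt-Co1, the catalytic subunit of cytochrome c oxidase, took 31.8%, 30.7% and 32.7% of mitochondrial counts in the high pools and 31.9%, 29.5%, 27.2% and 28.7% in the low pools. mt-Nd6, the complex I subunit encoded on the strand opposite to the other mRNAs, took 5.01% to 5.59% in all 7 pools. Per 100 nuclear counts, mt-Nd5, another complex I subunit, had 15.8, 23.3 and 8.55 counts in the high pools and 3.54, 6.59, 6.28 and 2.66 in the low pools. The 7 mRNA rows above 1% of mitochondrial counts each had more per nuclear count in every high pool than in every low pool. Some tRNA rows did not. Per 100 nuclear counts, mt-Te had 0.0580 in βNrf2KO pool 1 of the high side and 0.0601 in βNrf2KO pool 3 of the low side.

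Of the 13 mRNA rows, 6 contributed almost nothing to the share. mt-Co2, mt-Atp8, mt-Atp6, mt-Co3, mt-Nd3 and mt-Nd4l each had at most 0.0133% of mitochondrial counts in any pool. A stretch of mouse chromosome 1 carries a nuclear copy of this segment, annotated as 7 unprocessed pseudogenes (Gm28439, Gm10222, Gm28438, Gm28437, Gm10925, Gm28661 and Gm29216; GRCm38). Of all 31-base words in mt-Co2, mt-Atp6, mt-Co3, mt-Nd3 and mt-Nd4l, 98.1% to 99.9% also occur in those rows, against 7.47% for mt-Atp8. Among the mRNA rows with more counts, mt-Nd4 shares 62.8% of its words and mt-Co1 29.6%. For mt-Nd1, mt-Nd2, mt-Nd5, mt-Nd6 and mt-Cytb the value is 0%. The opening 120 bases of the ATP synthase subunit mt-Atp6 (chrM:7927-8607, plus strand) and of its copy Gm10925 (chr1:24613974-24614651, minus strand) are shown in GENCODE M21 sequence, because no letter differs over the 678 bases compared and a read cannot be assigned to either.
mt-Atp6: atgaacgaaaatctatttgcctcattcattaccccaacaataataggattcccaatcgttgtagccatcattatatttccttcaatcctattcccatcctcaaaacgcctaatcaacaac
Gm10925: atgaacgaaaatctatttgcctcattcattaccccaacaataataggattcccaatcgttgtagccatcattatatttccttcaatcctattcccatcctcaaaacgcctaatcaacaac
Gm10925 had 1428, 2193 and 792 counts in the high pools and 624, 640, 453 and 280 in the low pools. Its counts were higher in every high pool than in every low pool, and so were those of the other 6 copies, with log2 differences of 1.69 to 2.26. These 7 rows stand among the called nuclear genes below but cannot be told apart from mitochondrial transcripts.

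Across the nuclear genome 574 of 19848 tested genes (2.89%) differed between the sides at an adjusted p of 0.05, by edgeR's quasi-likelihood test with Benjamini-Hochberg adjustment. In the high pools 234 genes (1.18%) were higher and 340 (1.71%) lower. Counts of called members in the gene lists below are to be read against these shares. At an unadjusted p under 0.05 there were 2155 higher and 2192 lower genes, and the median log2 difference of all tested genes was 0.03. In each of the 574 called genes the sides did not overlap, and among all tested genes the high pools lay wholly above in 9.2% and wholly below in 11.4%. By p, the genes called higher began with Rn7s1 and Rn7s2 (signal recognition particle RNA), Phldb1, Ikbke and Tnip1, and those called lower with Gpr119 (a lipid receptor), St8sia3, Slc16a10, Lrrn1 and Phyhipl.

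The calls rested on single pools. With control pool 1 left out edgeR called 0 genes, and the same held for control pool 4; 3451 and 3545 genes then had an unadjusted p under 0.05. Leaving out βNrf2KO pool 3 or pool 4 also gave 0 calls, with 3193 and 3095 genes at an unadjusted p under 0.05. The count was 1757 once control pool 2 was dropped, 863 for βNrf2KO pool 1 and 270 for pool 2 of that genotype. Moving the threshold to 20% or 40% left 0 called genes, with 1089 and 3892 at an unadjusted p under 0.05. With genotype as a term, since the sides were not balanced for it, edgeR called 100 genes (0.504%), 32 higher (0.161%) and 68 lower (0.343%). On all 7 pools split at 25%, DESeq2 called 2042 genes and limma-voom 2951. When mitochondrial rows were kept in the library sizes, the median of all tested genes moved to -0.49 and the split of edgeR calls to 27 higher and 2979 lower. Differences below are relative to the median without those rows, and with them the medians of the gene lists fell by similar amounts. List medians from 0.05 to 0.30 then all turned negative, to between -0.48 and -0.28, and those of 0.58 or more stayed above 0.

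**Figure D2:**
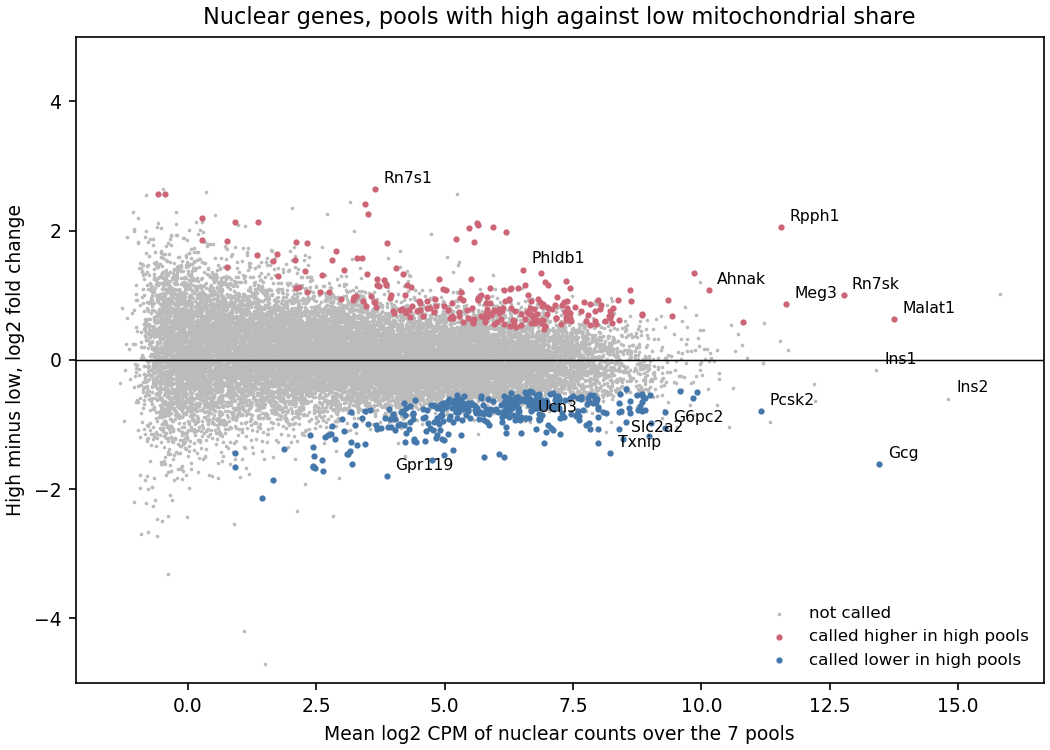
Log2 fold change of the high pools over the low pools (y axis) against mean log2 CPM of nuclear counts over the 7 pools (x axis) for the 19848 tested nuclear genes. Red points are the 234 genes called higher and blue points the 340 called lower, and the abundant hormone gene Gcg lies far below 0 while Ins1 and Ins2 were not called.

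Several small structural RNAs of the nucleus and cytosol were higher in the high pools. Of 17 tested members of this list 6 were called higher and 0 lower, and the median log2 difference was 1.00. The share called was 35.3%, against 2.89% of all tested genes. Fitted with genotype, 2 were called higher, namely Rn7s1 and Rn7s2. The first by p was Rn7s1, a gene of 7SL RNA, the scaffold of the signal recognition particle that brings secretory proteins to the endoplasmic reticulum. Rn7s2 is another gene of the same RNA with no mismatch to it, so the rows cannot be told apart. The 6 called members therefore hold 1 RNA under 2 rows. Rn7s1 had log2 CPM of 4.79, 5.50 and 5.19 in the high pools and 2.30, 3.08, 2.71 and 1.98 in the low pools. The log2 difference was 2.65 ± 0.27 (SE, 3 against 4 pools; edgeR adjusted p = 0.0201), and the sides lay far apart in both genotypes, by 2.85 within the control pools and 2.60 within the βNrf2KO pools. These levels rest on 346, 490 and 486 counts against 103, 127, 98 and 74. Rn7s2 had a log2 difference of 2.41 ± 0.28 (SE; edgeR adjusted p = 0.0228).

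The RNA components of the tRNA and rRNA processing enzymes were also higher. Rpph1, the RNA of RNase P, which trims the leading end of tRNA precursors, had log2 CPM of 13.05, 13.03 and 12.20 in the high pools and 10.40, 11.42, 10.87 and 9.95 in the low pools. It made up 0.479% to 0.867% of nuclear counts on the high side and 0.102% to 0.281% on the low side. The log2 difference was 2.05 ± 0.33 (SE; edgeR adjusted p = 0.0276), and with genotype as a term the adjusted p was 0.0772. Rmrp, the RNA of RNase MRP, which takes part in ribosomal RNA processing, had a log2 difference of 1.35 ± 0.27 (SE; edgeR adjusted p = 0.0402). Rmrp lost its call when transcript GC and exon number were fitted as an offset (edgeR adjusted p = 0.0925). Rn7sk, the RNA that holds the elongation factor P-TEFb inactive, took 1.16%, 0.835% and 1.13% of nuclear counts in the high pools and 0.515%, 0.670%, 0.374% and 0.568% in the low pools. That is a log2 difference of 1.00 ± 0.18 (SE; edgeR adjusted p = 0.0327), with no high pool inside the low range. Scarna13, which guides modification of spliceosomal RNA, was the sixth called member, at 1.55 ± 0.29 (SE; edgeR adjusted p = 0.0339). By annotated class, ribozyme rows took 0.595% to 1.12% of nuclear counts in the high pools and 0.153% to 0.373% in the low pools, and protein-coding genes took 80.9% to 86.3% against 89.1% to 91.7%. Gm26917, a row that overlaps ribosomal RNA repeats, took 7.09%, 12.4% and 6.61% of nuclear counts on the high side and 5.78%, 5.01%, 3.96% and 3.10% on the low side. It was not called (1.01 ± 0.29, SE; edgeR adjusted p = 0.0786), and the part of ribosome depletion in these values was not tested.

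Long noncoding RNAs that stay in the nucleus were mixed in direction. Of 24 tested members 5 were called higher and 2 lower, with a median log2 difference of 0.23 (0.12 to 0.35 with 1 pool left out). With genotype as a term 2 were called higher and 0 lower. Malat1, an abundant RNA of nuclear speckles, had log2 CPM of 14.09, 14.23 and 14.01 in the high pools and 13.49, 13.60, 13.32 and 13.50 in the low pools. The log2 difference was small, at 0.63 ± 0.13 (SE; edgeR adjusted p = 0.0434; 0.104 with genotype as a term). Malat1 lost its call when transcript GC and exon number were fitted as an offset (edgeR adjusted p = 0.0958). Airn, the antisense RNA of the imprinted Igf2r locus, and Firre, an X-linked RNA of nuclear architecture, were higher by 0.78 ± 0.12 and 1.08 ± 0.22 (SE; edgeR adjusted p = 0.0259 and 0.041). The called members that were lower were 2900097C17Rik and Peg13, a maternally imprinted RNA, at -0.57 and -0.79.

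Neighbouring genes of the imprinted Dlk1-Dio3 locus were also called higher. This list of 5 tested genes was drawn up after the values were seen; 3 were called higher, all 5 had a positive difference, and the median was 0.82. Of these, 1 was called with genotype as a term. Meg3, the maternally expressed noncoding RNA of the locus, had log2 CPM of 12.08, 12.35 and 12 in the high pools and 11.22, 11.50, 11.15 and 11.25 in the low pools. Its log2 difference was 0.86 ± 0.14 (SE; edgeR adjusted p = 0.0276), with a narrow spread inside each side. Mirg, the host RNA of a microRNA cluster in the locus, differed by 0.82 ± 0.13 (SE; edgeR adjusted p = 0.0259). Rtl1, a retrotransposon-derived gene needed in the placenta and muscle, differed by 1.23 ± 0.24 (SE; edgeR adjusted p = 0.0374), with its highest value in control pool 2.

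NF-kB is a family of transcription factors that inflammatory signals release from inhibitors, and its targets include both chemokines and its own inhibitors. This list, also drawn up after the values were seen, had 39 tested genes, of which 9 were called higher and 0 lower, with a median of 0.64. The subunit genes Nfkb1 and Nfkb2 were both higher. Nfkb2 had log2 CPM of 7.40, 8.01 and 7.54 in the high pools and 6.69, 6.81, 6.17 and 6.09 in the low pools. It differed by 1.2 ± 0.21 (SE; edgeR adjusted p = 0.0301), most in control pool 2, and Nfkb1 by 0.89 ± 0.20 (SE; edgeR adjusted p = 0.0459). Among the regulators, the kinase gene Ikbke had log2 CPM of 5.73, 5.26 and 5.78 against 4.12, 4.53, 4.32 and 4.47. It differed by 1.25 ± 0.17 (SE; edgeR adjusted p = 0.0245), and Tnip1, which encodes a ubiquitin-binding inhibitor of the pathway, by 1.08 ± 0.15 (SE; edgeR adjusted p = 0.0248). Birc3, a ubiquitin ligase gene that blocks cell death, differed by 1.12 ± 0.19 (SE; edgeR adjusted p = 0.0287). Tnip2, another inhibitor gene of the pathway, and Tnfaip2, a gene induced by TNF, completed the called regulators and targets at 0.77 each.

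The called chemokines were Cxcl1 and Cxcl2, which draw neutrophils. Their promoters are shown (RefSeq, GRCm38.p6, from 250 bases before the annotated start to 50 after it; chr5:90890995-90891294 and chr5:90903649-90903948, plus strand) because both hold paired matches to an NF-kB motif, the core GGGNNTTTC on either strand (reverse complement GAAANNCCC), printed in capitals.
Cxcl1: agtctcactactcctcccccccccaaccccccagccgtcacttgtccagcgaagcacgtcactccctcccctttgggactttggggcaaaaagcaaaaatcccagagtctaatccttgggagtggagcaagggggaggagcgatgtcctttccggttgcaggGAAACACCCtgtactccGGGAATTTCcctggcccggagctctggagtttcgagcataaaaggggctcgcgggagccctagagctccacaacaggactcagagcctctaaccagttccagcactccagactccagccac
Cxcl2: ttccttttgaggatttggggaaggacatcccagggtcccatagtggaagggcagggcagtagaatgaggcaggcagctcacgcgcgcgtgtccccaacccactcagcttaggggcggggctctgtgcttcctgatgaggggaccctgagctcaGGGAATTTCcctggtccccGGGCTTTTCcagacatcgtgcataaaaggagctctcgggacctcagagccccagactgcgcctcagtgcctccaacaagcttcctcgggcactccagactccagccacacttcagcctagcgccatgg
The motif occurred in the promoters of 11 of 29 tested list members with a promoter in the table (37.9%), of 652 of 12648 tested genes (5.15%) and of 1368 of all 27025 genes (5.06%). Of the 8 called members with a promoter, 3 held it, namely Cxcl1, Cxcl2 and Nfkb2. A match is a description of the letters only, and many members are on the list because they are known targets. Cxcl1 had log2 CPM of 5.50, 4.59 and 4.67 in the high pools and 3.8, 3.64, 3.66 and 3.51 in the low pools. It differed by 1.33 ± 0.23 (SE; edgeR adjusted p = 0.0296) and was highest in control pool 1. Cxcl2 differed by 1.57 ± 0.35 (SE; edgeR adjusted p = 0.0442), with βNrf2KO pool 1 at 3.33 close to control pool 4 at 3.14. With genotype as a term 3 of the 39 list members were called higher. Nfkb1, Cxcl2, Tnfaip2 and Tnip2 lost their calls when transcript GC and exon number were fitted as an offset. The edgeR adjusted p was then 0.0544, 0.0721, 0.105 and 0.0511, and the other called members kept their calls. Markers of macrophages and leukocytes, cells that also use this pathway, had a summed level of 165 to 329 CPM in the high pools and 155 to 266 in the low pools; 0 of 25 were called, and their part in the NF-kB values was not tested.

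The other genes highest in rank had varied roles. Ahnak, a giant scaffold protein gene, had log2 CPM of 10.84, 10.81 and 10.65 in the high pools and 9.63, 10.08, 9.63 and 9.35 in the low pools. It differed by 1.08 ± 0.16 (SE; edgeR adjusted p = 0.0259). Phldb1, which encodes a protein that anchors microtubules at the cell cortex, had 7.64, 7.22 and 7.16 against 6.01, 6.27, 5.98 and 5.48. The difference was 1.40 ± 0.19 (SE; edgeR adjusted p = 0.0245), with control pool 1 the highest. The remaining genes chosen by rank were Golga4 (a golgin of the trans-Golgi), Myo9b (an unconventional myosin), Dot1l (a histone methyltransferase), Tchp (a keratin-binding protein of the centrosome), Dzip1l (a ciliary protein) and Tyk2 (a Janus kinase), with differences of 0.75 to 1.15. Myo9b, Dot1l and Tyk2 lost their calls when transcript GC and exon number were fitted as an offset (edgeR adjusted p = 0.0945, 0.0741 and 0.0838).

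Some hormone and identity genes of islet cells were lower in the high pools. Of 32 tested β-cell genes 8 were called lower and 2 higher, with a median of -0.50, and 29 had a negative difference. Of these, 3 were called lower and 0 higher with genotype as a term. Slc2a2, the main glucose transporter of mouse β-cells, had log2 CPM of 7.71, 7.83 and 7.83 in the high pools and 8.90, 8.92, 8.73 and 9.40 in the low pools. The log2 difference was -1.22 ± 0.16 (SE; edgeR adjusted p = 0.0245), with the high pools close together and βNrf2KO pool 4 above the other low pools. Ucn3, a peptide released with insulin that marks β-cell maturation, had 6.18, 5.93 and 6.28 against 7.08, 7.01, 7.01 and 7.07. It differed by -0.91 ± 0.12 (SE; edgeR adjusted p = 0.0245). G6pc2, the islet glucose-6-phosphatase, differed by -1.05 ± 0.16 (SE; edgeR adjusted p = 0.0259). The fatty acid receptor gene Ffar1, the prohormone convertase gene Pcsk2 and the transcription factor gene Nkx6-1 differed by -1.15, -0.79 and -0.54. Ttr and Rbp4, carrier proteins of thyroid hormone and retinol that other islet cells also express, were lower by -0.83 and -0.93. In contrast, Abcc8, the sulfonylurea receptor subunit of the ATP-sensitive potassium channel, was higher by 0.58 ± 0.13 (SE; edgeR adjusted p = 0.0445). Abcc8 was 0.16 with an adjusted p of 0.437 once GC and exon number were an offset. In bulk RNA, fewer cells of a type and less RNA per cell cannot be told apart.

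The insulin genes were not called. Ins2 had log2 CPM of 14.27, 13.50 and 15.31 in the high pools and 15.13, 14.94, 15.44 and 15.04 in the low pools, with βNrf2KO pool 1 inside the low range (-0.60 ± 0.35, SE; edgeR adjusted p = 0.35). Ins1 had 13.67, 13.06 and 13.44 against 14.46, 13.04, 13.25 and 12.93 (-0.16 ± 0.35, SE; edgeR adjusted p = 0.838). Ins1 counts over Ins2 counts came to 0.658, 0.736 and 0.273 in the high pools and 0.629, 0.268, 0.219 and 0.231 in the low pools (exact permutation p = 0.114; the smallest possible is 0.0571). It was 0.629 to 0.736 in the 3 control pools and 0.219 to 0.273 in the 4 βNrf2KO pools, so the genotypes did not overlap. Within each genotype every high pool also lay above every low pool. The nearest values were 0.658 against 0.629 in control and 0.273 against 0.268 in βNrf2KO. The permutation test took no account of genotype, so it cannot separate the 2.

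Gcg, the glucagon gene of α-cells, showed the largest difference among the hormones. Its log2 CPM was 12.41, 12.59 and 12.76 in the high pools and 14.22, 13.28, 14.65 and 14.37 in the low pools. The log2 difference was -1.62 ± 0.28 (SE; edgeR adjusted p = 0.0301; 0.0558 with genotype as a term), with βNrf2KO pool 2 the lowest of the low side. Of 14 tested α-cell genes 4 were called lower and 0 higher, with a median of -0.67, and 0 were called by edgeR with genotype as a term. Beside Gcg these were Fev, a transcription factor gene (-1.26), Ttr, and Slc7a2, a transporter of cationic amino acids (-0.67). Of 12 δ- and PP-cell genes 3 were called lower, with a median of -0.48, among them the ghrelin receptor gene Ghsr (-1.42) and Rbp4. With genotype as a term edgeR called 0 of these 12. The hormone genes themselves were not called. Sst differed by -0.34 ± 0.21 (SE; edgeR adjusted p = 0.389) and Ppy by -0.85 ± 0.26 (SE; edgeR adjusted p = 0.099).

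Some genes of vesicle transport and exocytosis were also lower. Rab GTPases direct vesicles and SNARE proteins fuse them with their target membrane. This list was drawn up after the values were seen; of 45 tested genes 12 were called lower and 1 higher, with a median of -0.36. With genotype as a term 2 were called lower and 0 higher. Rab3a, a Rab of secretory granules, had log2 CPM of 5.18, 5.70 and 4.86 in the high pools and 6.28, 6.20, 6.36 and 6.17 in the low pools. It differed by -0.97 ± 0.19 (SE; edgeR adjusted p = 0.0349). Vamp2, the vesicle SNARE of insulin granules, had 7.80, 8.21 and 7.75 against 8.68, 8.61, 8.77 and 8.89, and differed by -0.81 ± 0.14 (SE; edgeR adjusted p = 0.0301). Both were lowest in βNrf2KO pool 1 and nearest to the low side in control pool 2. The other called members that were lower were Rab1a, Rab2a, Rab3b, Rab3d, Rab10, Nsf (the ATPase that takes SNARE complexes apart), Syt13, Cplx2 (a complexin), Sv2b and the early secretory cargo receptor gene Tmed10, at -1.28 to -0.59. Unc13a, a priming factor gene, was the called member that was higher (0.70 ± 0.13, SE; edgeR adjusted p = 0.0333), and its adjusted p was 0.111 with GC and exon number as an offset.

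Among all genes called lower, the first by p was Gpr119, a receptor of lipid amides found on β-cells. It had log2 CPM of 2.88, 3.11 and 2.56 in the high pools and 4.74, 4.37, 4.75 and 4.70 in the low pools. The log2 difference was -1.80 ± 0.20 (SE; edgeR adjusted p = 0.0201). Rasd1, a Ras-like gene induced by glucocorticoids, had 5.44, 5.49 and 4.71 against 6.99, 6.52, 6.66 and 6.63, a difference of -1.46 ± 0.20 (SE; edgeR adjusted p = 0.0248). Both were lowest in βNrf2KO pool 1. The others chosen by rank were St8sia3 (a sialyltransferase), Slc16a10 (a transporter of aromatic amino acids), Lrrn1 (a leucine-rich repeat membrane protein), Phyhipl, Cxxc4 (an inhibitor of Wnt signalling), Suox (sulfite oxidase), Tnr (tenascin-R) and Ubqln2 (a ubiquilin), at -1.22 to -0.94.

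**Figure D3:**
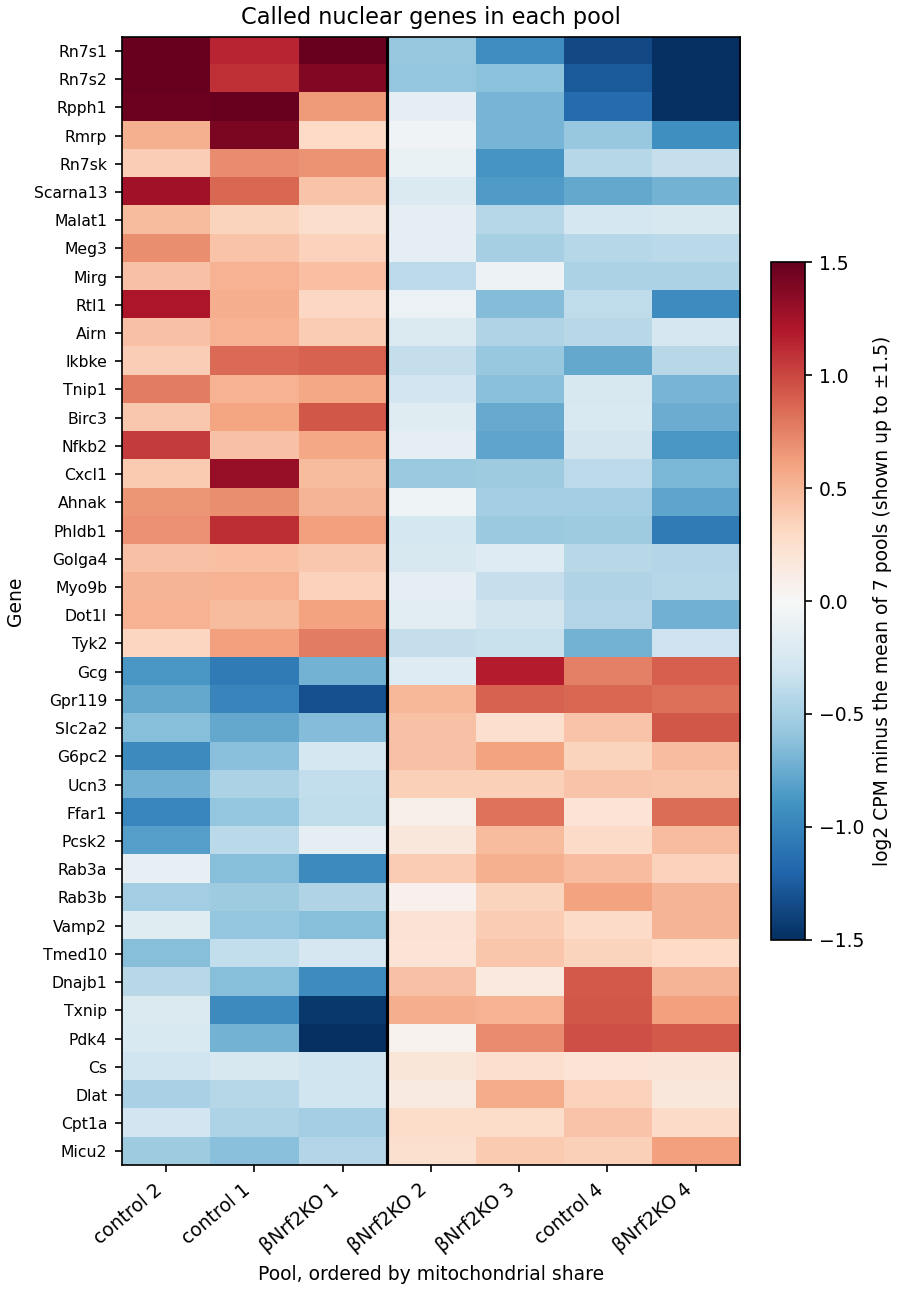
Log2 CPM of 40 called nuclear genes (rows, chosen after their values were seen) minus each gene's mean over the 7 pools, shown up to ±1.5. Pools (columns) are ordered by mitochondrial share and a black line marks the 25% threshold; βNrf2KO pool 2, just below the threshold, lies nearest to the high side for Ahnak, Gcg and Rpph1.

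Most lists of nuclear genes for mitochondrial proteins held called genes in shares of 0% to 2.94%, against 2.89% of all tested genes. The list of the TCA cycle and pyruvate entry, given below, held 10.8%. In the oxidative phosphorylation lists 0 of 36 complex I genes and 0 of 39 genes of complexes II to V were called by edgeR, with medians of -0.22 and -0.23. Of these genes, 30 and 32 had negative differences. Their summed levels were 471 to 604 CPM and 1038 to 1285 CPM in the high pools and 564 to 660 CPM and 1238 to 1512 CPM in the low pools, so the sides overlapped in both. Ndufa9, a complex I subunit gene, differed by -0.64 ± 0.22 (SE; edgeR adjusted p = 0.121). No gene of mitochondrial DNA maintenance and transcription was called among 27 tested (median 0.05, and -0.08 to 0.11 with 1 pool left out), including Polg, the catalytic subunit of the mitochondrial DNA polymerase, at 0.65 ± 0.16 (SE; edgeR adjusted p = 0.0552), and Tfam, which packages and transcribes the mitochondrial genome, at -0.20 ± 0.23 (SE; edgeR adjusted p = 0.645). Of 34 genes of mitochondrial RNA processing 1 was called, the tRNA methyltransferase gene Nsun3, at -1.01 ± 0.20 (SE; edgeR adjusted p = 0.0362). Of 77 genes of the mitochondrial ribosome 1 was called, Mrps5, at -0.78 ± 0.17 (SE; edgeR adjusted p = 0.0444), and of 34 genes of import, chaperones and proteases 1, the matrix protease gene Lonp1, at 0.59 ± 0.13 (SE; edgeR adjusted p = 0.0451). Among 22 genes of mitochondrial dynamics and mitophagy 0 were called. Nsun3, Mrps5 and Lonp1 lost their calls with GC and exon number as an offset (edgeR adjusted p = 0.066, 0.0653 and 0.171).

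Some genes of the TCA cycle and of the entry of fuel into the mitochondrion, or its control, were lower in the high pools. Of 37 tested genes of the TCA cycle and pyruvate entry 4 were called lower and 0 higher, with a median of -0.26 (-0.42 to -0.25 with 1 pool left out). Only 1 was called, lower, with genotype as a term. Cs, citrate synthase, had log2 CPM of 6.42, 6.36 and 6.36 in the high pools and 6.86, 6.84, 6.91 and 6.84 in the low pools. This small difference of -0.48 ± 0.11 (SE; edgeR adjusted p = 0.0445) exceeded the spread on either side. Dlat, a subunit of pyruvate dehydrogenase, differed by -0.72 ± 0.15 and Idh3g, a subunit of isocitrate dehydrogenase, by -0.51 ± 0.11 (SE; edgeR adjusted p = 0.0434 and 0.0444). Pdk4, the kinase that switches pyruvate dehydrogenase off, had 4.28, 4.75 and 3.27 against 5.96, 5.04, 5.69 and 5.90, a difference of -1.48 ± 0.33 (SE; edgeR adjusted p = 0.0459). All 4 lost their calls with GC and exon number as an offset. The edgeR adjusted p was then 0.0503 for Dlat, 0.0513 for Idh3g, 0.0634 for Cs and 0.0979 for Pdk4. Some further genes were chosen after their values were seen. Txnip, a glucose-induced inhibitor of thioredoxin, had 7.26, 8.0 and 6.76 against 9.15, 8.76, 8.74 and 8.82, a difference of -1.45 ± 0.25 (SE; edgeR adjusted p = 0.0301). Like Pdk4 it was lowest in βNrf2KO pool 1 and lost its call with the offset (edgeR adjusted p = 0.061). Cpt1a, which admits long-chain fatty acids to mitochondria, Gpd2, the mitochondrial glycerol phosphate dehydrogenase, and Micu2, a regulator of the calcium uniporter, differed by -0.74, -0.89 and -0.95. All 3 were called by edgeR with adjusted p from 0.0259 to 0.0301 and kept their calls with the offset.

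Among stress lists, heat shock genes and p53 targets held called genes in shares of 15% and 11.5%, against 2.89% of all tested genes. Of 20 heat shock genes 3 were called lower, the chaperone gene Hspa1b and the cochaperone genes Dnajb1 and Dnaja1. The number called lower was also 3 with genotype as a term. Dnajb1 had log2 CPM of 8.33, 8.56 and 8.03 in the high pools and 9.89, 9.41, 9.12 and 9.48 in the low pools, a difference of -1.18 ± 0.19 (SE; edgeR adjusted p = 0.0276). The summed level of the list was 4721 to 5163 CPM in the high pools and 6007 to 7894 CPM in the low pools. Of 26 p53 target genes 3 were called lower, Trp53inp1, Ei24 and Tigar, at -0.75 to -0.66, while the median of the list was 0.15. Of the p53 targets 2 were called lower with genotype as a term. Among 31 immediate early genes, which neurons and β-cells switch on within minutes of a stimulus, Arc was the called member (-1.12 ± 0.26, SE; edgeR adjusted p = 0.0496). Fitted with genotype, 4 of the 31 were called lower. Fos was at 9.51, 10.97 and 9.01 in the high pools and 11.63, 10.89, 10.79 and 11 in the low pools. Control pool 2 therefore lay with the low side for Fos, which was not called (edgeR adjusted p = 0.201). In the unfolded protein response list, Eif2ak3, the gene of the sensor kinase PERK, was the called member of 31 (0.56 ± 0.13, SE; edgeR adjusted p = 0.0487).

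No member was called by edgeR among 50 S phase genes (median -0.32), 55 genes of G2 and M phase (-0.20), 31 ATF4 targets (0.16), 79 cytosolic ribosomal protein genes (0.09), 31 proteasome genes (-0.16), 34 genes of glycolysis and hypoxia (-0.04) or 27 of sterol synthesis (-0.17). With 1 pool left out the median of the ATF4 targets was lowest without control pool 1 (-0.04) and highest when control pool 2 was dropped (0.38), that of glycolysis and hypoxia ran from -0.30 (βNrf2KO pool 1 left out) to 0.13 (control pool 2), and that of sterol synthesis from -0.41 to 0.04 with the same pools left out. The Nrf2 targets, 45 genes of antioxidant defence, also had no called member and a median of 0.09 (-0.01 to 0.09 with 1 pool left out). Nfe2l2, the gene of Nrf2, had log2 CPM of 6.92, 5.92 and 6.55 in the high pools and 6.09, 6.34, 6.56 and 6.36 in the low pools, which overlapped (edgeR adjusted p = 0.678). Keap1, its inhibitor, differed by 0.01 ± 0.19 (SE; edgeR adjusted p = 0.987).

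Markers of other cells of the pancreas moved with some of the pools. All 20 tested pericyte and smooth muscle genes had positive differences, with a median of 0.79. Their summed level was 1599 to 4018 CPM in the high pools and 1418 to 2058 CPM in the low pools. Of these genes 1 was called, the contractile gene Smtn (5%, against 2.89% of all tested genes). Fibroblast and matrix genes had positive differences in 25 of 28 with a median of 0.66. Their summed levels were 2669 to 5084 CPM against 2321 to 4069 CPM. The proteoglycan gene Dcn was the called member, or 3.57% of the list (1.87 ± 0.39, SE, edgeR adjusted p = 0.0434). Acinar genes, which encode digestive enzymes, had positive differences in 20 of 24, a median of 1.13 and summed levels of 307 to 970 CPM against 315 to 624 CPM. The called member of that list, Dbpht2 (-1.29), is not an acinar marker. Mesothelial genes were positive in 11 of 11 with a median of 1.17, 109 to 277 CPM against 59.0 to 154 CPM, and 0 calls by edgeR. No listed marker of these 4 cell types was at 0 in every pool. With 1 pool left out the medians stayed positive, at 0.33 (without control pool 1) to 1.83 (without βNrf2KO pool 2) for acinar, 0.42 to 0.96 for pericyte, 0.35 to 0.85 for fibroblast and 0.74 to 1.62 for mesothelial genes.

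For the lists, differences within each genotype are given as values, and whether they depend on genotype was not tested. The acinar median was 1.98 between the high and low control pools but 0.13 between βNrf2KO pool 1 and the other βNrf2KO pools. Likewise the fibroblast median was 1.17 within control and -0.28 within βNrf2KO, and the pericyte median 0.96 and 0.04. By comparison the α-cell median was -0.78 and -0.71, the small structural RNA median 1.06 and 0.85 and the NF-kB median 0.60 and 0.67. Other medians were nearer to 0 within βNrf2KO than within control. The β-cell median was -0.67 within control and -0.22 within βNrf2KO, and the TCA cycle median -0.47 and -0.10. For complex I the values were -0.45 and -0.03, and for complexes II to V -0.43 and -0.06. With the acinar mean entered as a covariate, or that of the fibroblast and pericyte lists, edgeR called 0 genes, with 2347 and 1990 at an unadjusted p under 0.05 and smallest adjusted p of 0.176 and 0.289. Xist as a covariate left 1 call and 3548 genes at an unadjusted p under 0.05. Endothelial genes had a median of -0.06 with 1 of 24 called, Egfl7 (0.76), ductal genes 0.05 with 1 of 19, Tspan8 (-0.99), neuronal and Schwann genes 0.11 with 2 of 23, Fabp7 (1.31) and Ret (-0.71), and adipocyte genes 0.15 with 1 of 8, Lpl (-0.62). In that order the shares called were 4.17%, 5.26%, 8.7% and 12.5%, against 2.89% of all tested genes. Each rested on 1 or 2 genes. Macrophage, erythroid and striated muscle genes had medians of 0.26, 0.30 and 0.16 and 0 calls by edgeR. These medians rested on single pools: that of macrophage genes was -0.17 without control pool 1 and 0.53 without βNrf2KO pool 1, that of erythroid genes -0.04 without control pool 2 and 0.66 without βNrf2KO pool 2, and that of striated muscle genes -0.18 without control pool 1 and 0.40 without βNrf2KO pool 1. The neuronal median was -0.31 when control pool 2 was dropped and 0.39 when control pool 4 was, the ductal median from -0.06 to 0.17 and the endothelial median from -0.13 to 0.04.

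**Figure D4:**
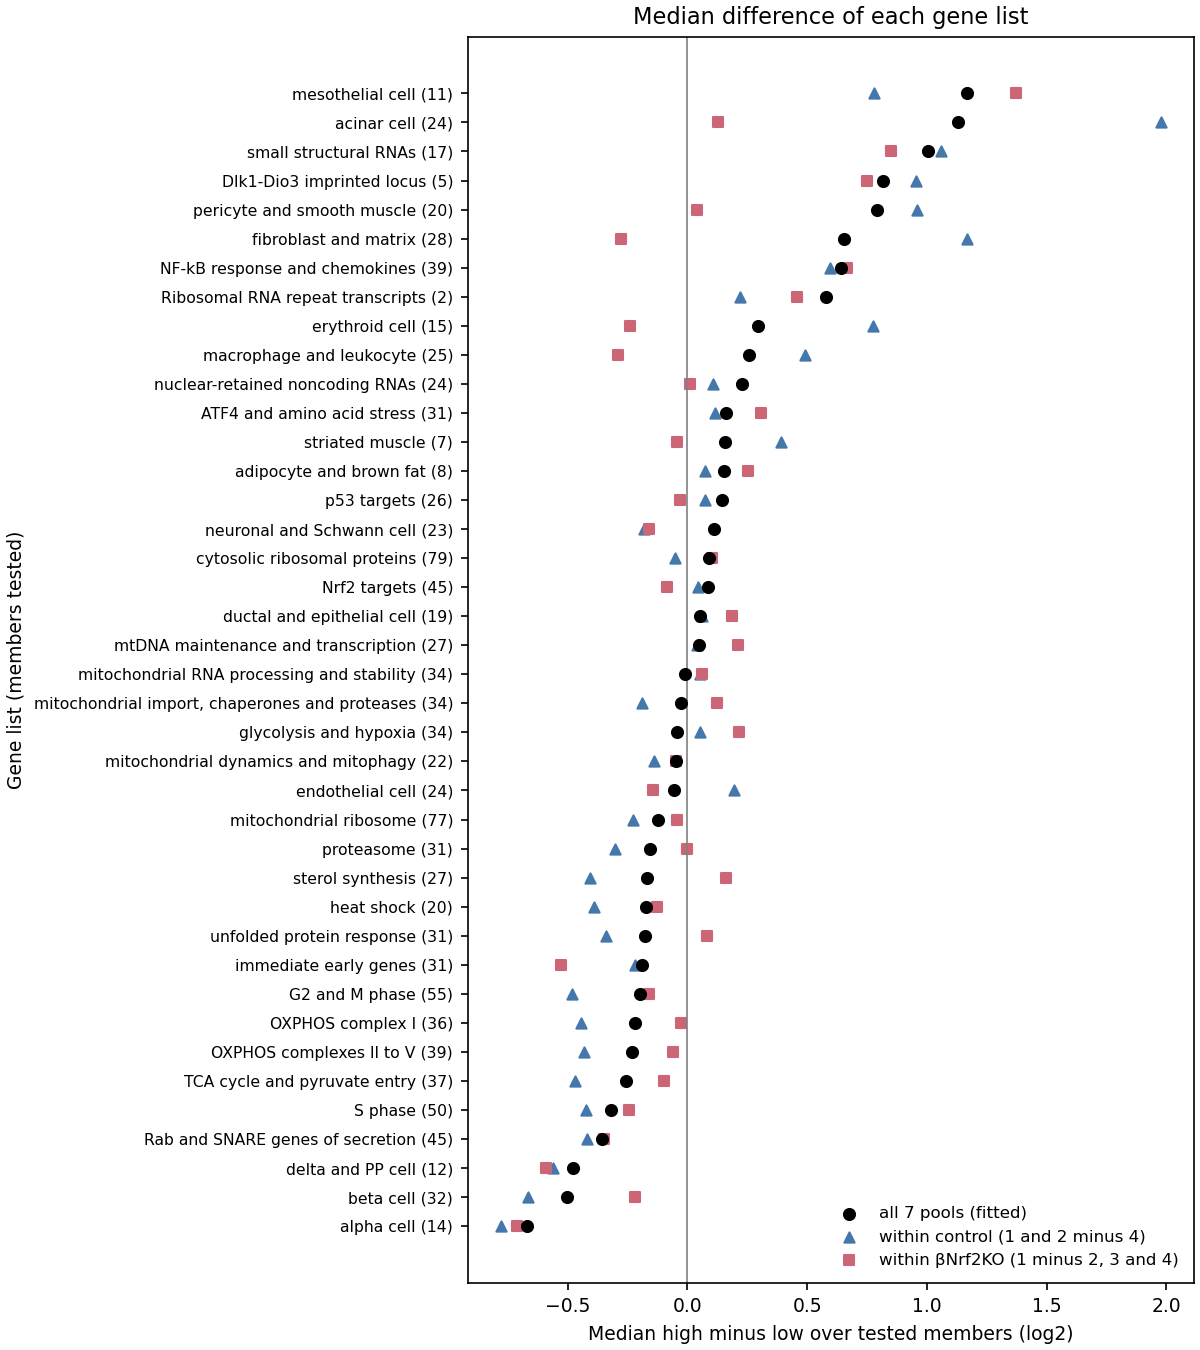
Median log2 difference, high minus low, over the tested members (number in parentheses) of each gene list, ordered by the fitted value from all 7 pools (black circles). Triangles are control pools 1 and 2 minus 4 and squares βNrf2KO pool 1 minus pools 2, 3 and 4, so each leans on 1 pool. Acinar medians were 1.98 within control and 0.13 within βNrf2KO, fibroblast medians 1.17 and -0.28, and α-cell medians -0.78 and -0.71. Dependence on genotype was not tested for the lists.

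The called protein-coding genes also shared properties of their transcripts. The 200 called higher had a median GC content of 55.1% in the longest GENCODE M21 transcript and 19 merged exons, the 325 called lower had 46.0% and 8, and the other tested protein-coding genes had 49.9% and 10. Over all 15002 tested protein-coding genes, the median log2 difference ran from -0.22 at a GC content of up to 40% to 0.24 above 56%. By exon number it ran from -0.13 for genes with 1 exon to 0.24 for those with over 32. Control pool 2, the pool with the highest mitochondrial share, deviated most, from -0.25 in the lowest GC class to 0.33 in the highest. Control pool 1 ran from -0.07 to 0.04, and βNrf2KO pools 3 and 4 ran the other way, from 0.19 to -0.10 and from 0.18 to -0.15. With GC and exon number fitted per pool as an offset edgeR called 276 genes, 76 higher and 200 lower, of which 227 were among the 574. The rest of the 574 lost their calls, including named genes for which no offset value is given above. Among these were Dcn, Smtn, Ttr, Slc7a2, Ghsr, Rtl1, Rab2a, Cplx2, Trp53inp1, Tigar, Dnaja1, Arc, Eif2ak3, Egfl7, Tspan8 and Lpl.

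**Figure D5:**
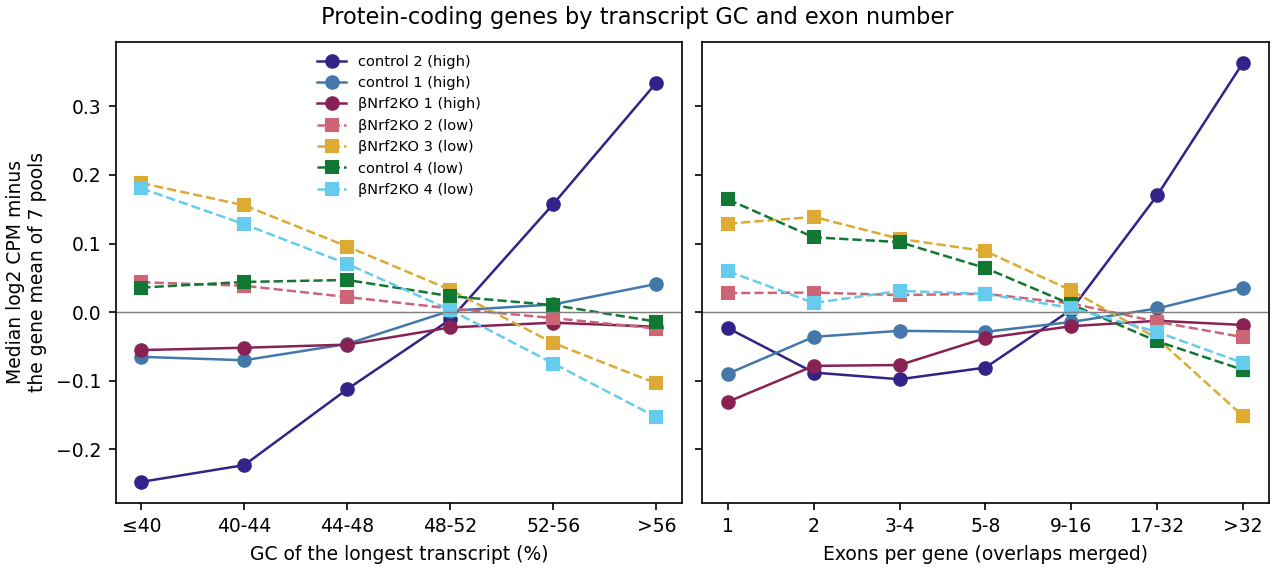
Median deviation of log2 CPM from each gene's mean over the 7 pools (y axis), for 15002 protein-coding genes in classes of transcript GC (left) and exon number (right). Solid lines with circles are high pools and dashed lines with squares low pools; control pool 2 climbs from -0.25 to 0.33 across GC, and the other high pools lie between -0.13 and 0.04 in every class shown.

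Of the 100 genes that edgeR called with genotype as a term, 91 were among the 574. Rasd1 had the smallest adjusted p of the named genes (0.00574), followed by Rn7s1, Gpr119 and Dnajb1. Whether the difference itself depended on genotype was tested with an interaction term, for which edgeR called 0 genes, with 564 at an unadjusted p under 0.05. With 1 βNrf2KO pool on the high side and 1 control pool on the low side, that test leaned on single pools.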

How the data were processed

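RNA of islet pools was sequenced after ribosome depletion (QIAGEN FastSelect rRNA HMR, NEBNext Ultra II, per the labels' protocols). The authors deposited raw counts per gene, made with featureCounts (Subread 1.5.2) after STAR 2.5.2b, Trimmomatic 0.36 and bcl2fastq 2.20, per the submitters' processing notes. Strandedness, the handling of multi-mapping reads and the annotation version are not given in the sources used here, so overlapping, antisense and near-identical genes are uncertain. The notes list GRCm39, but 91.4% of 48970 gene IDs shared with GENCODE M21 have its GRCm38 start and end, and coordinates are given in GRCm38. Symbols matched 48970 of 49315 mouse IDs.

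Pools were split at a mitochondrial share of 25%. Nuclear genes were compared by edgeR 4.0.16 under R 4.3.3 (with data.table at version 1.17.8) on 3 high against 4 low pools without covariates, with TMM, filterByExpr by side, the robust quasi-likelihood fit, a two-sided test and Benjamini-Hochberg adjustment over 19848 genes. Called means an adjusted p under 0.05. Log2 CPM used TMM library sizes without mitochondrial rows and a prior count of 2, and log2 differences are high minus low with the SE of the fit. No statement in the labels says that pools of a genotype were prepared apart, and what the pool numbers stand for is not given. The p-values measure the spread between these pools only. They cannot separate the sides from pool numbers 1 and 4. For counting error only, 0 counts leave room for 3, equal to 0.138 to 0.257 CPM of nuclear counts. Single values had an exact permutation test, two-sided, over 35 splits.

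The sides, the 36 lists and 4 added lists were chosen with earlier results of these data known. Named genes are the 12 with the smallest p per direction (mean log2 CPM at least 1, sides apart, no predicted-gene name), up to 3 per list by p or, for cell types, by level, and Nfe2l2, Keap1, Malat1 and the hormone genes. Some called list members are not reported here. Other called list members, Txnip, Cpt1a, Gpd2, Micu2, Fos, Tfam, Xist and Gm26917 were chosen after their values were seen. Alternatives used DESeq2 1.42.0, limma 3.58.1 and the settings given at the end. Offsets for GC and exons and the Xist and stromal covariates were added after the data were seen. The NF-kB motif core was chosen after a longer form of it had been searched. Figures used matplotlib 3.10.9.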

Additional observations from a re-analysis of the deposited data

Results flagged for a closer look

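Among the 4 low pools, 187 measures were checked for 1 pool standing apart (gap over range above Dixon's 95% critical value), and 6 were past that limit. By chance alone about 1 in 20 such groups is flagged, and 6 of 187 is not above that rate. βNrf2KO pool 2 stood apart for Gpr119 (log2 CPM 4.37, lower than the others), the erythroid list mean (3.99, higher) and the acinar enzyme gene Ctrb1 (7.09, higher). Control pool 4 stood apart for Tyk2 (5.01, lower) and the complex I gene Ndufs5 (3.02, higher). βNrf2KO pool 3 stood apart for the mean of the nuclear-retained noncoding RNAs (5.95).

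The Cre recombinase row, which no comparison used, was at 24 counts in βNrf2KO pool 1, 23 in pool 2, 46 in pool 3, 73 in pool 4 and 0 in each control. The high βNrf2KO pool and pool 2 of the low side were alike in this row.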

How the results depend on the processing

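The number of called genes moved by over 1.5 times under many settings, and the cause was not tested. Calls higher and lower were 909 and 1133 with DESeq2 (2042 in all), 1399 and 1552 with limma-voom with quality weights (2951), 396 and 698 without a filter (1094), 27 and 2979 with mitochondrial rows in the library sizes (3006), 792 and 1013 at an adjusted p of 0.1 (1805), 692 and 525 against the continuous mitochondrial ratio (1217), 23 and 7 against that ratio with genotype (30), 32 and 68 with genotype as a term (100), 76 and 200 with the GC and exon offset (276) and 155 higher with the GC offset. With Xist as a covariate there was 1 higher and 0 lower. edgeR called 0 with the acinar covariate, 0 with the fibroblast and pericyte covariate and 0 at thresholds of 20% and 40%. Leaving out each pool gave 0 to 1757 calls, 0 to 806 higher and 0 to 951 lower. Upper-quartile and RLE scaling, leaving the 20 highest genes out of library sizes, a filter of 1 CPM in 3 pools, thinned counts and removal of the mitochondrial copies kept the number of calls within 1.5 times.

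The ratio of total counts ran from 0.938 to 1.08 when each pool was left out, below 1 for control pool 2, βNrf2KO pool 2 and pool 3, and to 0.889 at the 20% threshold. With mitochondrial rows in the library sizes list medians from 0.05 to 0.30 all turned negative, among them those of p53 targets (-0.42), nuclear-retained noncoding RNAs (-0.33) and adipocyte genes (-0.37); the p53 median ran from -0.00307 (without control pool 2) to 0.139 over the pools left out. Over all alternatives, 459 of the list medians stayed within their spread, 57 moved beyond it and 4 that had exceeded it changed sign. For single named genes 1663 results kept their side of the threshold, 599 lost it and 74 gained it. No paired analysis was possible because the sides share only pool number 2. Nuclear depth differed between the sides, and with every pool thinned to the smallest nuclear total of 11688553 counts edgeR called 539 genes.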
